A study of Mus musculus with 9 samples.

Results

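The YAP/TEAD factors and targets described here are 10 genes at the output end of the Hippo pathway. They were chosen by name, with earlier results of these data known. They are the coactivators Yap1 and Wwtr1 (which encodes TAZ), the DNA-binding partners Tead1 and Tead2, and the widely used target genes Cyr61, Ctgf, Axl, Amotl2, Lats2 and Ajuba. The deposited table lists Cyr61 as Ccn1 and Ctgf as Ccn2, and those symbols are used from here on. Each of the 10 genes had 1 row in a table of 15526 genes. The other pathway genes are described only as lists around these 10.

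The data were poly-A RNA-seq profiles of mouse ES cells, the pluripotent cells of the early embryo kept in culture, with a 129 background. WT cells were unedited, and KO1 and KO2 were lines from which Kif2a, a kinesin that shortens microtubules from their ends, had been removed in separate editing events. No group was treated with any agent, and each group had 3 libraries. Each knockout group is 1 line, so the loss of Kif2a and other features of a line cannot be told apart within that line. The labels do not say whether the 3 libraries of a group came from separate cultures, so each p-value reflects library-to-library spread alone, which may be technical. Levels are normalised read counts, which the authors had scaled between libraries, and differences are on the log2(value + 1) scale ± SE, with 95% intervals and adjusted p-values from limma over 10238 tested genes.

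YAP and TAZ do not bind DNA themselves and act on genes through TEAD proteins. The kinases LATS1 and LATS2 phosphorylate YAP and TAZ, which are then held in the cytoplasm or degraded, and cell contacts, tension on the actin cytoskeleton and cell shape feed into this step. Several targets feed back on the pathway: angiomotin-like proteins bind YAP, and LATS2 phosphorylates it. In the mouse embryo before implantation, YAP and TEAD4 act in outer cells to turn on trophectoderm genes, and inner cells at that stage keep YAP out of the nucleus. Transcript levels alone do not report the location or phosphorylation of these proteins.

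Depth was 14960295 to 18814858 reads per library. Kif2a had a level of 114 ± 6.49 (SD, n = 3) in WT cells, against 0.999 ± 0.140 for KO1 and 1.17 ± 0.528 for KO2, so the knockout libraries held 0.952% of the WT level. An exact two-sided permutation of 6 against 3 libraries gave p = 0.0238, the lowest of its 84 assignments. The 5 ES cell markers summed to 6921 to 7213 in WT, 6813 to 7083 in KO1 and 6827 to 6908 in KO2. Of these, the naive pluripotency marker Zfp42 fell by 0.17 ± 0.04 in KO2 (adjusted p = 0.00051), from 1330 ± 15.8 to 1182 ± 21.5. Sox2 differed between the lines, at 421 ± 21.7 in KO2 and 352 ± 30.7 in KO1 (0.26 ± 0.07, adjusted p = 0.043), a call lost in 12 of 21 alternatives (adjusted p from 0.00022 to 0.24). Those included the fits without WT library 2 (0.058), KO1 library 1 (0.088) or 2 (0.10), and KO2 library 2 (0.13) or 3 (0.24). The trophoblast markers found in the table, 5 of 6, summed to between 23.6 and 31.9.

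The other marker lists did not move as units. The primitive endoderm markers found, 3 of 6, summed to 18.9 to 21.6 in WT, 17.3 to 21.2 in KO1 and 24.0 to 25.2 in KO2. The higher KO2 sum came from Gata4, which rose from 12.6 ± 1.49 to 20.2 ± 0.306 (0.64 ± 0.13, adjusted p = 0.00033). Dab2, at 5.90 ± 0.741 in WT and 3.42 ± 0.696 in KO2, and Pdgfra, at 1.94 ± 0.117 and 1.18 ± 0.615, had lower means in KO2 and were under the level filter. The fibroblast markers found, 6 of 8, summed to 118 to 122 in WT, 123 to 126 in KO1 and 158 to 161 in KO2. All 3 that were tested rose in KO2, where 11.0% of all tested genes did: Col5a1 from 77.5 ± 4.11 to 97.9 ± 2.96, Fbln2 from 14.9 ± 1.84 to 23.1 ± 0.668 and Pdgfrb from 14.5 ± 0.580 to 22.8 ± 1.77. In KO1, Fbln2 (20.3 ± 1.6) and Pdgfrb (18.4 ± 0.707) also lay above every WT library, without a call (limma, adjusted p = 0.071 and 0.2). Both were called higher over both lines (adjusted p = 0.00065 and 0.0018) and neither between the lines. Col5a1 was at 72.8 ± 2.93 in KO1 and was called between the lines. The defining fibroblast collagens, under the level filter, were near 0 and had lower means in KO2, with Col1a1 at 1.94 ± 0.474 in WT and 1.60 ± 0.410 in KO2 and Col1a2 at 3.94 ± 0.394 and 3.14 ± 0.311. Thy1, also under the filter, was at 7.22 ± 0.286 in WT and 10.7 ± 1.48 in KO2. The part of these markers in the KO2 results below was not tested. In bulk samples, fewer cells of a type and less RNA per cell cannot be told apart.

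Set per kilobase of merged exon, the members ran over a wide range in WT cells. Ajuba was highest, at 67.6 ± 2.08 normalised reads per kilobase (SD, n = 3). Yap1 at 42.9 ± 1.46 and Tead2 at 42.8 ± 1.64 came next, and these neighbours did not differ beyond their spread. Amotl2 followed at 36.4 ± 1.79 per kilobase. Tead1 at 30.7 ± 1.41 and Wwtr1 at 29.9 ± 0.887 again overlapped, so that per length the YAP transcript was above the TAZ transcript. Ccn1 was at 25.9 ± 1.03 and Ccn2 at 20.6 ± 1.12, below the factors named so far. Axl at 2.58 ± 0.677 and Lats2 at 1.43 ± 0.155 were the lowest members. Among the other TEAD genes, Tead4 was at 20.6 ± 0.497 and Tead3 at 2.41 ± 0.221 per kilobase. In the knockout lines Tead2 was above Yap1 without overlap, at 46.3 ± 0.718 against 41.9 ± 1.63 per kilobase in KO1 and 51.3 ± 0.715 against 40.1 ± 0.920 in KO2. Lengths come from GENCODE M21 and cover every annotated exon, so a gene that uses a shorter transcript is underestimated.

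**Figure D1:**
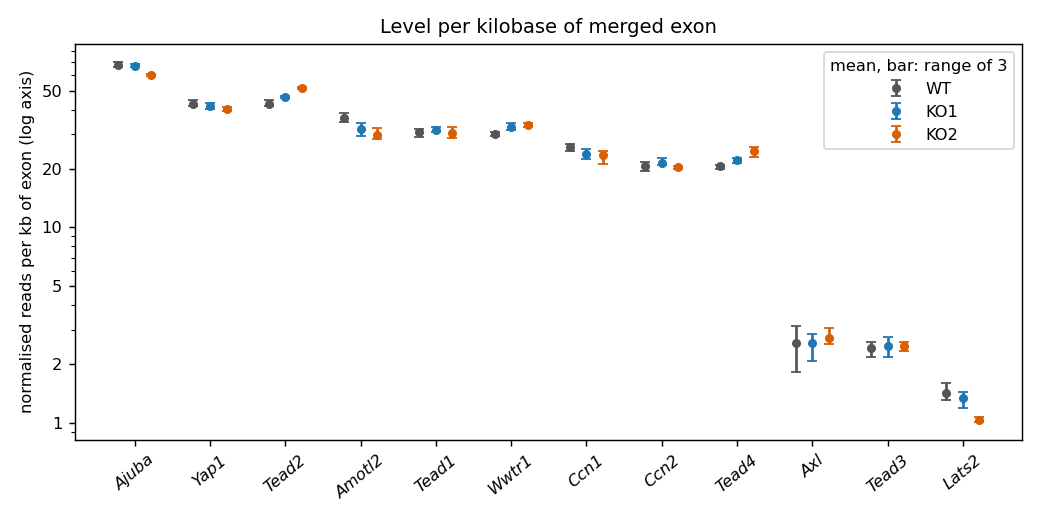
Normalised reads per kilobase of merged exon (y, log axis) for the 10 members, Tead3 and Tead4 (x), with the mean of 3 libraries per group as a point and their range as a bar. In WT, Yap1 and Tead2 lie together at 42.9 and 42.8; in KO2, Tead2 is at 51.3 and Yap1 at 40.1.

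TEAD proteins recognise a short core, GGAATG, here searched on both strands. RefSeq promoters of GRCm38.p6, from 250 bases before to 50 after a RefSeq start, were used for 8 of the 10 members. The core was present in 7 of those 8 members, and in 14.7% of all 32851 promoters in the table, or 13.8% of the 8124 tested genes with a promoter. A match is a description of the letters, not evidence of binding, and most members were picked for being known TEAD targets. The 30-base windows around the 8 matches are shown because they are the candidate TEAD elements nearest to each start. Each is printed on the strand that reads GGAATG, with those letters in capitals, and 5 of the 8 are followed by T and 3 by C.
Yap1, chr9:8004720-8004749, minus strand: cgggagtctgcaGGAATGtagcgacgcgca
Wwtr1, chr3:57576029-57576058, minus strand: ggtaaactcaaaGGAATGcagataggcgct
Ccn1, chr3:145650071-145650100, plus strand: tcaaacatctcaGGAATGttggttggcgcg
Axl, chr7:25788949-25788978, minus strand: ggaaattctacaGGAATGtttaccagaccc
Amotl2, chr9:102717727-102717756, minus strand: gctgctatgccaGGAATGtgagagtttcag
Lats2, chr14:57746102-57746131, minus strand: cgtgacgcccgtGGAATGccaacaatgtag
Ajuba, distal, chr14:54577830-54577859, plus strand: gaggggcactgtGGAATGtatccatcaacg
Ajuba, proximal, chr14:54577808-54577837, plus strand: ttgtttacagttGGAATGcgcggaggggca
Distances are for the base of the core farthest upstream when read along the gene, which is not always the first base printed. That base lay 141 bases before the start in Yap1, 136 in Wwtr1, 103 in Ccn1 and 233 in Axl. In Amotl2 the core lay 65 bases before a start that is itself inside the gene. The pair in Ajuba lay 186 and 164 bases before the start, and the Lats2 match lay 5 bases after a start. The Amotl2 and Lats2 cores overlap annotated exons of GENCODE M21, inside the genes and not upstream of them. The Amotl2 core begins at 102717739, where the gene, on the plus strand, begins at 102716672. The Lats2 core ends at 57746119, where the gene, on the minus strand, begins at 57758388. The Tead2 promoter held no GGAATG, which says only that these letters are not in this window.

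The members did not move as 1 block in either knockout line. Against WT, 0 of the 9 tested members were called in KO1 at an adjusted p under 0.05, where 1.06% of all tested genes were called. Before adjustment 3 had p under 0.05, and edgeR and DESeq2 on the recovered reads each called 1 (Amotl2). The share of all tested genes with an unadjusted p under 0.05 was not taken. Counts at that threshold, here and for the lists below, therefore have no background. In KO2, 4 of 9 were called, where 18.5% of all tested genes were. Tead2 and Wwtr1 rose, as did 11.0% of all tested genes, and Amotl2 and Ajuba fell, as did 7.51%. In KO2, edgeR (TMM) called 4 members, with Yap1 in place of Wwtr1, and DESeq2 called 3, without Wwtr1. Over all tested genes edgeR called 1882 there and DESeq2 1699, beside 1892 with limma. For the mean of both knockout lines against WT, 2 of 9 were called, Tead2 higher and Amotl2 lower. Of all tested genes 9.09% were called there, 6.16% higher and 2.93% lower. Both single-line comparisons use the same 3 WT libraries, and a WT library that stands apart moves both.

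Between the knockout lines 2 of 9 members were called, Tead2 higher and Ajuba lower in KO2, where 9.92% of all tested genes were called, 4.71% higher and 5.22% lower. The median difference of the 9 members was 0.01 in KO1 and -0.02 in KO2, beside 0.02 and 0.02 over all tested genes. The libraries of KO1 and WT did not overlap for 3 of 9 members, where 18.2% of all tested genes did not, and those of KO2 and WT for 6 of 9, where 32.3% did not. All 6 knockout libraries lay on 1 side of WT for 3 of 9, where 9.06% of all tested genes did so, and KO2 and KO1 did not overlap for 3 of 9, where 27.9% did not. Lats2, with a mean value of 8.84, lay under the level filter of 10 and had no fitted p in these counts.

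**Figure D2:**
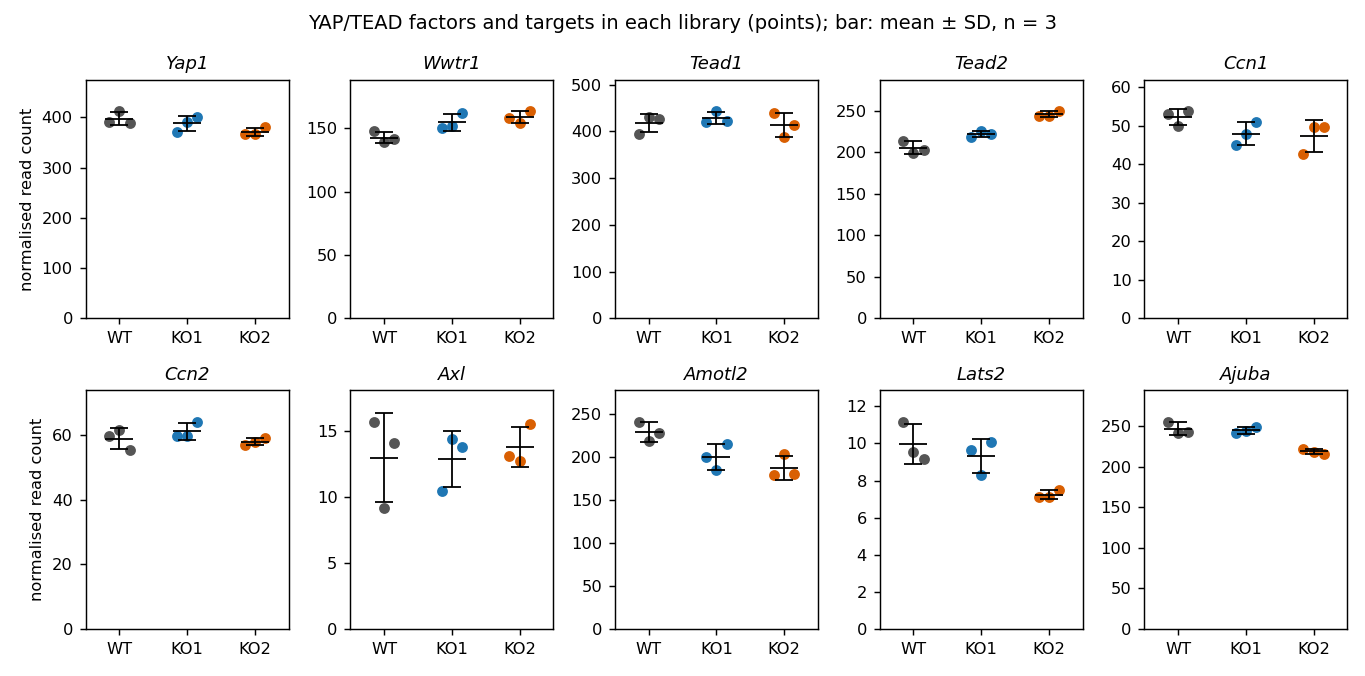
Normalised read count (y, from 0) in each of the 9 libraries (points) for the 10 members, by group (x), with the mean ± SD of 3 libraries. The KO2 points of Tead2 (243.8 to 249.8) lie above every WT point (198.6 to 213.8), and those of Amotl2 (178.4 to 203.0) lie below every WT point (218.4 to 240.9).

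Of the coactivators, Yap1 (ENSMUSG00000053110, chr9:7931999-8004596 in GRCm38, minus strand) had normalised read counts of 391.2, 413.0 and 388.2 in WT, 371.4, 391.3 and 400.9 in KO1, and 366.1, 365.9 and 380.7 in KO2. All KO2 libraries lay below all WT libraries, and the KO1 libraries overlapped both. The Yap1 difference was -0.04 ± 0.04 in KO1 (95% interval -0.12 to 0.05, adjusted p = 0.82) and -0.10 ± 0.04 in KO2 (-0.19 to -0.01, adjusted p = 0.11). edgeR on recovered reads called the KO2 difference, at -0.12 with an adjusted p of 0.045; over all alternatives the adjusted p ran from 0.045 to 0.32.

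Wwtr1 (ENSMUSG00000027803, chr3:57455649-57575910, minus strand) encodes TAZ, the paralog of YAP. Its counts were 147.6, 139.4 and 141.4 in WT, 150.2, 151.7 and 162.3 in KO1, and 158.0, 154.6 and 163.9 in KO2, so every knockout library lay above every WT library. The difference was 0.11 ± 0.06 in KO1 (0.00 to 0.23, adjusted p = 0.37) and 0.15 ± 0.06 in KO2 (0.04 to 0.26, adjusted p = 0.046). The KO2 call was lost in 16 of 21 alternatives, 7 of them leaving out 1 library, with values from 0.13 to 0.18 and adjusted p-values from 0.041 to 0.13. The call held without WT replicate 1 and without KO2 replicate 2. Between the lines Wwtr1 differed by 0.04 ± 0.06 (adjusted p = 0.73).

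Of the DNA-binding factors, Tead1 (ENSMUSG00000055320, chr7:112679318-112906807, plus strand) had counts of 395.3, 430.8 and 425.5 in WT, 419.8, 444.0 and 422.2 in KO1, and 440.0, 388.5 and 414.7 in KO2. All groups overlapped. The 95% interval of its difference was -0.05 to 0.13 in KO1 (adjusted p = 0.79) and -0.10 to 0.08 in KO2 (adjusted p = 0.91).

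Tead2 (ENSMUSG00000030796, chr7:45215753-45233644, plus strand) is the TEAD gene known for early expression in the mouse embryo. Its counts were 213.8, 198.6 and 202.9 in WT, 218.2, 225.1 and 221.7 in KO1, and 243.9, 243.8 and 249.8 in KO2. No groups overlapped, with KO1 between WT and KO2. Tead2 rose by 0.26 ± 0.05 in KO2 (0.16 to 0.36, adjusted p = 9.2e-05), 19.8% above the WT mean, and this call held in all 21 alternatives (adjusted p from 9.3e-06 to 0.011). In KO1 the difference was 0.11 ± 0.05 (0.01 to 0.21, adjusted p = 0.31). The difference between the lines was 0.15 ± 0.05 (0.05 to 0.25, adjusted p = 0.041), and that call was lost in 9 of 21 alternatives (adjusted p from 0.013 to 0.14), among them the removal of any 1 library of either knockout line. An exon of Cd37 overlaps Tead2 on the opposite strand, and Cd37 was at 4.936 to 9.537 in the 9 libraries. No source used here states whether reads were counted by strand.

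The TEAD partners, a list of the other TEAD genes and the Vgll cofactors that compete with YAP for TEAD, had 4 of 6 genes in the table and 3 tested. Tead4, the TEAD gene needed for trophectoderm in the mouse, had counts of 75.18, 71.99 and 74.98 in WT, 79.03, 76.88 and 81.16 in KO1, and 90.76, 92.63 and 82.44 in KO2. No groups overlapped. Tead4 rose by 0.25 ± 0.07 in KO2 (adjusted p = 0.0058), and its KO1 difference was 0.09 ± 0.07 (adjusted p = 0.63). Vgll4 fell by 0.27 ± 0.10 in KO2 (adjusted p = 0.045), from 42.5 ± 1.31 to 35.1 ± 4.27. The Vgll4 call was lost in 9 of 20 alternatives, including without any 1 WT library (adjusted p from 0.07 to 0.12) and without KO2 replicate 1 (0.075) or 3 (0.24). The median difference of the 3 tested partners in KO2 was 0.04, beside 0.02 over all tested genes.

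**Figure D3:**
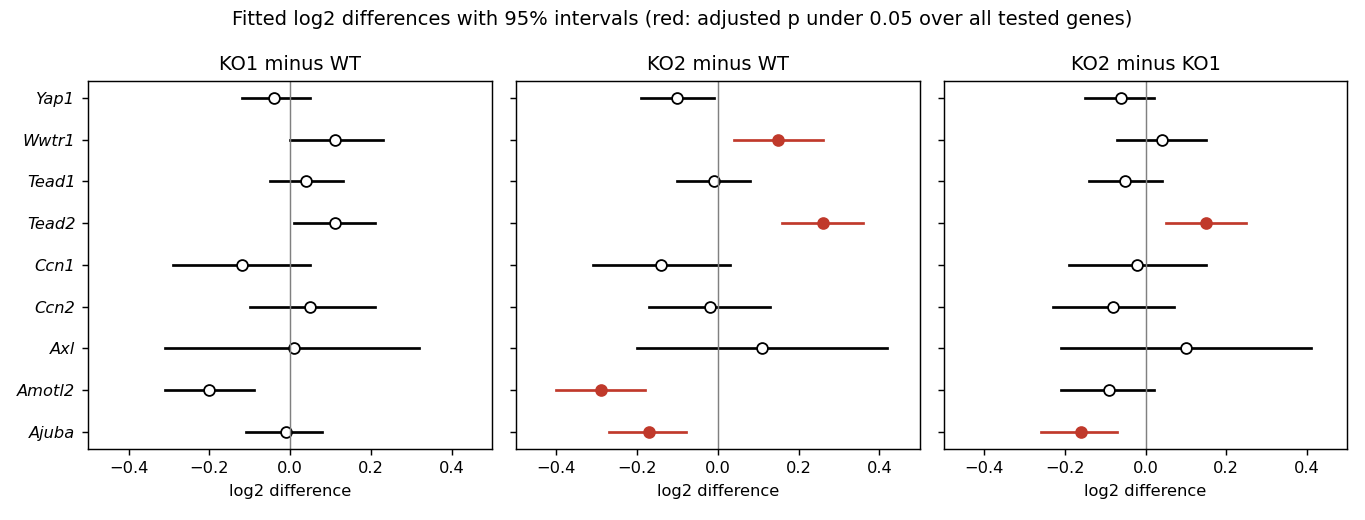
Fitted log2 differences (x) with 95% intervals for the 9 tested members (y), for KO1 minus WT, KO2 minus WT and KO2 minus KO1, with called members in red. Tead2 is at 0.26 and Amotl2 at -0.29 in KO2, and the intervals of Tead1, Ccn2 and Axl span 0 in all 3 panels.

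The secreted targets Ccn1 and Ccn2, matricellular proteins whose transcripts are standard readouts of YAP activity, were not called in any comparison. Ccn1 (ENSMUSG00000028195, chr3:145646976-145649981, minus strand) had counts of 52.92, 49.89 and 53.86 in WT, 45.08, 47.89 and 50.91 in KO1, and 42.54, 49.68 and 49.75 in KO2. All KO2 libraries lay below the WT libraries by a narrow margin, and KO1 overlapped WT. The Ccn1 difference was -0.12 ± 0.08 in KO1 (-0.29 to 0.05, adjusted p = 0.59) and -0.14 ± 0.08 in KO2 (-0.31 to 0.03, adjusted p = 0.25).

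Ccn2 (ENSMUSG00000019997, chr10:24595442-24598683, plus strand) had counts of 59.75, 61.76 and 55.50 in WT, 59.74, 59.87 and 64.31 in KO1, and 57.08, 57.85 and 59.21 in KO2. Both knockout lines overlapped WT. Its difference was 0.05 ± 0.08 in KO1 (-0.10 to 0.21, adjusted p = 0.84) and -0.02 ± 0.08 in KO2 (-0.17 to 0.13, adjusted p = 0.88). Axl (ENSMUSG00000002602, chr7:25757273-25788705, minus strand) encodes a receptor tyrosine kinase that binds Gas6. Its counts were 15.74, 9.188 and 14.08 in WT, 10.43, 14.39 and 13.78 in KO1, and 13.12, 12.78 and 15.52 in KO2, with full overlap. They rest on 79 to 152 reads per library, and the intervals of its difference were wide, -0.31 to 0.32 in KO1 and -0.20 to 0.42 in KO2. WT replicate 2 was the lowest Axl value of all 9 libraries, and without it the differences were -0.21 in KO1 and -0.11 in KO2.

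Amotl2 (ENSMUSG00000032531, chr9:102716672-102733418, plus strand), a target whose product holds YAP at junctions and actin, was the tested member that fell most. Its counts were 240.9, 218.4 and 227.6 in WT, 199.8, 184.1 and 215.2 in KO1, and 178.4, 203.0 and 179.7 in KO2. Every knockout library lay below every WT library, and the lines overlapped each other. Amotl2 fell by 0.29 ± 0.06 in KO2 (-0.40 to -0.18, adjusted p = 0.00012), to 18.3% below WT, and by 0.24 ± 0.05 over both lines (-0.34 to -0.15, adjusted p = 0.00043). The KO2 call held in all 21 alternatives (adjusted p from 2.2e-05 to 0.034). The call over both lines was lost in 1 of 21, limma without variance trend and robust moderation (adjusted p = 0.066).

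In KO1 alone the Amotl2 difference was -0.20 ± 0.06 (-0.31 to -0.09, adjusted p = 0.064). It was called in 9 of 21 alternatives, among them edgeR (-0.22, adjusted p = 0.026) and DESeq2 (-0.22, adjusted p = 0.041), and the adjusted p ran from 0.023 to 0.40. Leaving out KO1 replicate 3, KO2 replicate 2 or KO2 replicate 3 made it a call (adjusted p = 0.026, 0.047 and 0.027). Between the lines Amotl2 differed by -0.09 ± 0.06 (-0.21 to 0.02, adjusted p = 0.30).

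Lats2 (ENSMUSG00000021959, chr14:57689662-57758388, minus strand), the kinase that phosphorylates YAP and is itself a target, was low throughout. Its counts were 11.18, 9.537 and 9.153 in WT, 9.646, 8.297 and 10.05 in KO1, and 7.091, 7.098 and 7.504 in KO2, resting on 60 to 108 reads. The KO2 libraries lay below all others, and KO1 overlapped WT. The 6 knockout libraries against 3 WT gave a difference of -0.25 (exact two-sided permutation test, p = 0.143, smallest possible 0.0238). KO2 against WT gave -0.41 with p = 0.1 by exact permutation (two-sided), a floor set by 3 against 3 libraries. With no level filter, limma gave -0.41 ± 0.16 in KO2 (-0.74 to -0.08, adjusted p = 0.09). Gm49361 overlaps Lats2 exons on the same strand and was at 12.66 to 18.26, so reads of these genes may not be separable.

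Ajuba (ENSMUSG00000022178, chr14:54567472-54577558, minus strand) encodes a LIM protein that binds and inhibits LATS kinases at junctions, and carries the pair of TEAD cores printed above. Its counts were 255.4, 241.6 and 243.0 in WT, 241.2, 243.5 and 248.9 in KO1, and 222.1, 217.9 and 215.8 in KO2. KO1 overlapped WT, and KO2 lay below both. Ajuba fell by 0.17 ± 0.05 in KO2 (-0.27 to -0.08, adjusted p = 0.0075), 11.4% below WT, and its KO1 difference was -0.01 ± 0.05 (-0.11 to 0.08, adjusted p = 0.95). The KO2 call held in 20 of 21 alternatives and was lost without WT replicate 1 (-0.15, adjusted p = 0.054).

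The difference of Ajuba between the lines was itself called, at -0.16 ± 0.05 (-0.26 to -0.07, adjusted p = 0.022). It was lost in 4 of 21 alternatives (adjusted p from 0.013 to 0.098), including the fits without the second KO1 library (0.070), the third KO1 library (0.098) and the second KO2 library (0.059).

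**Figure D4:**
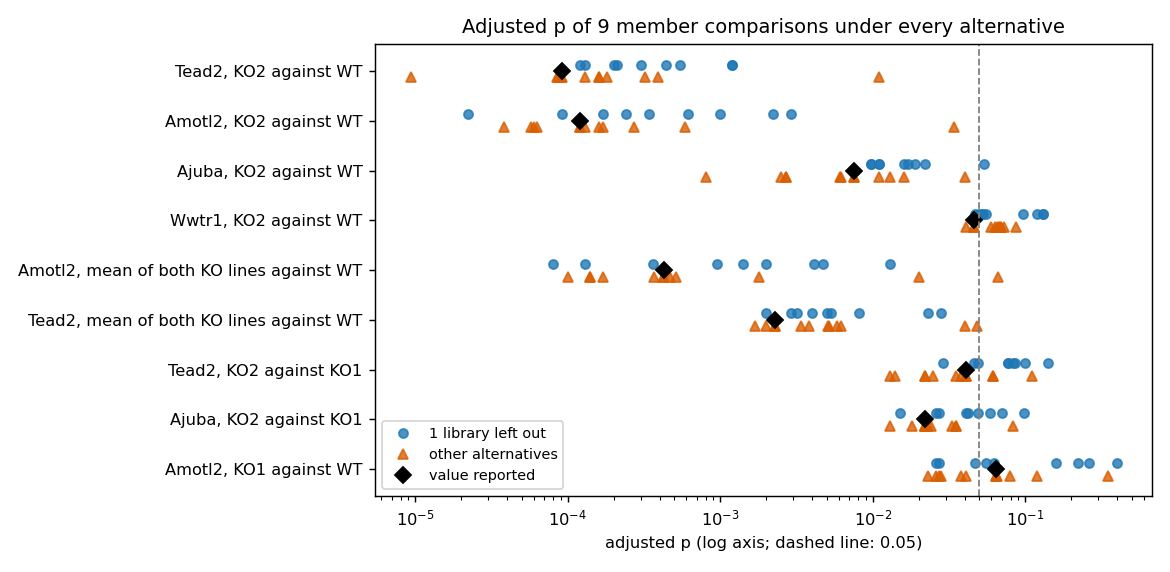
Adjusted p (x, log axis) of 9 member comparisons (y) as reported (diamonds), with 1 library left out (circles) and under the other alternatives (triangles), with a dashed line at 0.05. The KO2 calls of Tead2 and Amotl2 stay left of the line throughout, and that of Wwtr1, reported at 0.046, straddles it.

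Upstream of YAP, the kinase core was a list of 13 kinases, adaptors and scaffolds, all tested. In KO1, limma, edgeR and DESeq2 each called 0 of the 13, where limma called 1.06% of all tested genes. Before adjustment, 0 had p under 0.05 in limma. In KO2, 3 of 13 rose, where 11.0% of all tested genes did, and 0 fell, where 7.51% did, with a median difference of -0.02 beside 0.02 over all tested genes. Wwc2, a WWC-family scaffold related to KIBRA, rose by 0.16 ± 0.04 (adjusted p = 0.0045), from 532 ± 5.93 to 593 ± 13.3. Map4k4, a kinase able to phosphorylate LATS, rose by 0.14 ± 0.04 (adjusted p = 0.0074). Wwc1, which encodes KIBRA, rose by 0.18 ± 0.06 (adjusted p = 0.043) with libraries that overlapped WT, and its call was lost in 14 of 21 alternatives (adjusted p from 0.0048 to 0.27). Those included the fits without the first WT library (0.15), the second (0.27), the first KO1 library (0.054), the second (0.051) and the first KO2 library (0.18).

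The junction and turnover list, polarity and junction proteins and the machinery that degrades YAP, had 18 of 22 genes tested. In KO1, 0 were called by limma, edgeR or DESeq2, where limma called 1.06% of all tested genes. Before adjustment, 3 had p under 0.05 in limma. In KO2, 2 of 18 rose, where 11.0% of all tested genes did. Csnk1e, a casein kinase 1 gene, rose by 0.19 ± 0.05 (adjusted p = 0.0039). Amotl1, the paralog of Amotl2, rose by 0.22 ± 0.06 (adjusted p = 0.0095), with counts of 97.96, 89.09 and 96.57 in WT against 113.1, 111.6 and 106.6 in KO2, and so differed in the opposite direction to Amotl2. Without WT replicate 2 neither was called (adjusted p = 0.052 and 0.064), and without KO2 replicate 3 the list had 4 calls. Its median difference in KO2 was -0.01, beside 0.02 over all tested genes. Amot and Crb3, under the level filter and so not tested, were higher in every knockout library than in every WT library. WT libraries held 3.722 to 4.928 for Amot and 2.908 to 5.488 for Crb3. Across KO1 libraries these genes ranged over 5.742 to 8.957 and 8.268 to 9.768. The KO2 ranges were 5.436 to 6.861 and 7.607 to 8.863. Amot rested on 32 to 91 reads per library and Crb3 on 25 to 93.

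Of 17 other YAP/TEAD targets, 13 were in the table but only 5 passed the level filter. In KO1, limma, edgeR and DESeq2 called 0 of the 5, where limma called 1.06% of all tested genes. Before adjustment, 0 had p under 0.05 in limma. In KO2, 1 of the 5 was called, where 18.5% of all tested genes were. That gene was Myof, which encodes myoferlin, a membrane repair protein. Its counts were 16.05, 18.03 and 18.54 in WT, 17.03, 21.74 and 18.47 in KO1, and 27.54, 26.97 and 33.0 in KO2. KO2 lay above all other libraries. Myof rose by 0.70 ± 0.12 in KO2 (0.46 to 0.94, adjusted p = 1.8e-05) and differed between the lines by 0.59 ± 0.12 (adjusted p = 0.00052). The median of the 5 tested targets in KO2 was 0.05, beside 0.02 over all tested genes.

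The SRF targets, genes driven by the actin-sensing factor SRF that often respond beside YAP, had 9 of 16 genes tested. In KO2, 1 of 9 rose and 2 fell, where 11.0% and 7.51% of all tested genes did. In KO1, 1 of 9 rose, where 1.06% of all tested genes were called in either direction, and edgeR and DESeq2 each called 2. Before adjustment, 5 of the 9 had p under 0.05 in KO1 (limma). Actb, cytoplasmic beta-actin, had counts of 4730, 4865 and 4735 in WT, 4610, 4472 and 4362 in KO1, and 4035, 4187 and 3870 in KO2, and fell by 0.25 ± 0.03 in KO2 (adjusted p = 2.6e-07). Actg1, cytoplasmic gamma-actin, fell by 0.22 ± 0.04 in KO2 (adjusted p = 2.5e-05). For both actin genes all KO1 libraries also lay below all WT libraries. The KO1 differences of Actb (-0.09 ± 0.03, adjusted p = 0.19) and Actg1 (-0.12 ± 0.04, adjusted p = 0.12) were not called. Over both lines Actb and Actg1 were called lower (adjusted p = 5.7e-05 and 0.00032). Actb and Actg1 have similar coding sequences and processed pseudogenes, so reads could be split between them. Tagln2, which encodes the actin-binding transgelin 2, rose by 0.31 ± 0.05 in KO2 (adjusted p = 8.3e-06) and by 0.21 ± 0.05 in KO1 (adjusted p = 0.018). The KO1 call of Tagln2 was lost without WT replicate 2 (0.15), KO1 replicate 1 (0.20) or KO1 replicate 2 (0.11). The median of the 9 tested SRF targets in KO2 was -0.07, beside 0.02 over all tested genes.

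**Figure D5:**
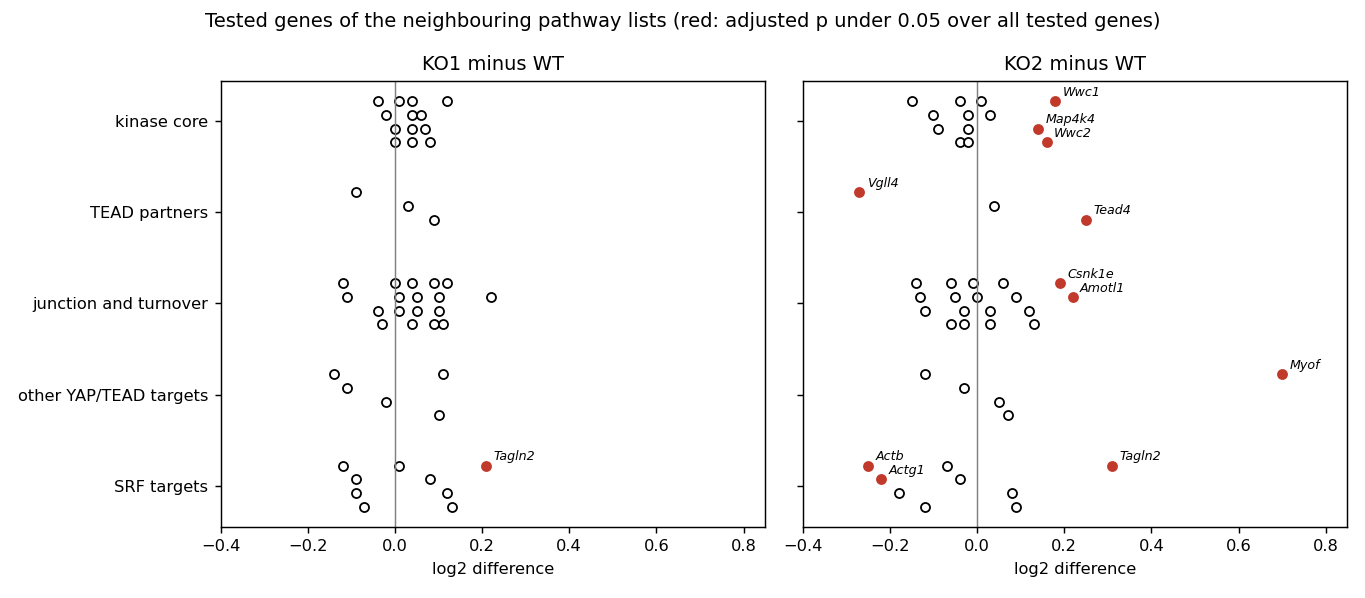
Log2 differences (x) of the tested genes in 5 pathway lists (y) for KO1 minus WT and KO2 minus WT, 1 point per gene, with called genes in red and named. In KO2, Myof stands farthest right at 0.70, and Actb at -0.25 and Actg1 at -0.22 are the called SRF targets that fell.

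The genes below were picked as the most correlated with each called member over 9 libraries that share 3 groups. High correlations therefore come with the choice, no background was taken, and the values are a description only. The tested genes most like Tead2 by Pearson correlation of log2 values were Got2 (r = 0.978), Ccdc6 (0.978) and Ilrun (0.977). Those most like Amotl2 were Tmem115 (0.971), Rmnd5b (0.966) and Stard3 (0.959). For Ajuba they were Zfp180 (0.970), Wdr45 (0.960) and the cyclin D1 gene Ccnd1 (0.960), with 293 ± 11.4 normalised reads in WT, 271 ± 9.31 for KO1 and 213 ± 11.3 for KO2. For Wwtr1 they were Pdia4 (0.970), Cct7 (0.966) and Parvb (0.954).

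Within groups the members differed in how far they varied beyond read counting. Ajuba had a coefficient of variation of 2.18%, where counting alone gives 2.13%, and Tead2 had 2.51% against 2.19%. Amotl2 varied by 6.82% against 2.29% and Tead1 by 4.81% against 1.60%, more than counting alone gives. Axl, the tested member with the fewest reads, varied by 19.0% against 9.01%.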

How the data were processed

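Per the labels, poly-A RNA from Trizol extracts was made into stranded TruSeq libraries and read as paired ends on a NextSeq2000. HISAT2, DESeq2 and GRCm38 are named in the submitters' processing notes; no source used here states the annotation or the strand setting of the counting. The deposited values are a signal that the authors had already scaled, 1 value per gene and library for 15526 genes. All values (100%) were whole multiples of 1 step per library within 0.05 reads, so whole reads were recovered: 14960295 to 18814858 per library. Those depths limit the precision of low genes such as Axl and Lats2.

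Log2(value + 1) was fitted with limma 3.58.1 (R 4.3.3), with a mean per group, variance trend and robust moderation, for the 10238 genes whose average over the 9 libraries reached 10. The threshold for a call was a p of 0.05 after Benjamini-Hochberg adjustment over all tested genes. On recovered reads, edgeR 4.0.16 (quasi-likelihood, TMM factors) called 117 genes in KO1 and 1882 in KO2, and DESeq2 1.42.0 was an alternative. Lats2, under the filter, and Kif2a were tested by exact two-sided permutation. The fits were tested on simulated data. Other scalings, pseudocounts, filters, single libraries left out and a replicate block were also tried. Members and gene lists were chosen with earlier results of these data known. The naming rule took all 10 members, up to 4 called genes of each list by adjusted p, and the 3 genes most correlated with each called member. Reading the lists under the alternatives was added after seeing the data.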

Additional observations from a re-analysis of the deposited data

Results flagged for a closer look

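Differences between the knockout lines were called for 4 of the members and pathway-list genes named above, where 9.92% of all tested genes were called. The list genes were named because they were called against WT, so their count cannot be read against that share. Tead2 was higher in KO2 than in KO1 by 0.15 on the log2 scale (limma, adjusted p = 0.041), and Ajuba was lower, at -0.16 (adjusted p = 0.022). The Tead2 call was lost in 9 of 21 alternatives and the Ajuba call in 4 of 21. Myof was higher in KO2 by 0.59 (adjusted p = 0.00052), and Actb was lower, at -0.15 (adjusted p = 0.0015). Of the list genes not named above, Flna and Limd1 were also called lower in KO2. Flna was at -0.18 (limma, adjusted p = 0.00053) and Limd1 at -0.25 (adjusted p of 0.05 after rounding). Of the cell type markers, 3 also differed between the lines: Gata4 by 0.55 (adjusted p = 0.0036), Col5a1 by 0.42 (adjusted p = 1.5e-05) and Sox2 by 0.26 (adjusted p = 0.043), all higher in KO2. The Sox2 call was lost in 12 of 21 alternatives. The part of the markers in the other differences was not tested.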

How the results depend on the processing

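The KO2 calls of Tead2 and Amotl2 held under every alternative tried. The number of members called in KO1 was 1 in place of 0 under median-ratio scaling, quantile normalization, edgeR with either set of factors, DESeq2 and a fit of only the groups compared, and 0 to 1 with 1 library left out. Without variance trend and robust moderation, 1 member, Tead2, was called over both lines and 0 between the lines. Under that setting 20 genes were called in KO1, 1151 in KO2, 374 over both lines and 413 between the lines. With both lines as 1 group, 216 genes were called in place of 931. Between the lines 1 member was called with no filter, and 0 to 2 with 1 library left out. With 1 library left out, 50 to 166 genes were called in KO1, 1324 to 1808 in KO2, 511 to 1063 over both lines and 521 to 1207 between the lines. With 1 library left out, the Kif2a difference was -5.88 to -5.75, and without a WT library (-5.84 to -5.76) its p of 0.0714 (exact permutation) is the smallest possible.

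The replicate numbers did not pair the libraries: same-numbered libraries of different groups had correlations of -0.129 to 0.027. With the replicate block, 89 genes were called in KO1, 1719 in KO2, 819 over both lines and 867 between the lines, and 1 member in place of 2 between the lines.

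Scaling moved the split of calls: 85 higher and 24 lower in KO1 became 66 and 41 under median-ratio scaling, 65 and 38 under quantile normalization, 69 and 48 with edgeR (TMM) and 64 and 43 with DESeq2. Over both lines 631 and 300 became 494 and 439, 482 and 421, 462 and 463, and 427 and 399. In KO2, 1123 and 769 became 985 and 940, 929 and 916, 950 and 932, and 868 and 831. Between the lines the larger side turned over, from 482 higher and 534 lower to 560 and 490, 537 and 496, 580 and 495, and 510 and 469.

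Uncalled differences near 0 changed sign. Over both lines Tead1 was -0.004 under median-ratio scaling, -0.0051 and -0.0038 with edgeR and -0.0039 with DESeq2, and Ccn2 was -0.0019, -0.0044, -0.003 and -0.0031, with -0.0049 under quantile normalization. Axl in KO1 was -0.02 under median-ratio scaling, -0.03 under quantile normalization, -0.05 and -0.04 with edgeR and -0.04 with DESeq2. With 1 library left out, these differences ran from -0.05 to 0.03 for Tead1 in KO2, -0.02 to 0.04 for Tead1 over both lines, -0.06 to 0.05 for Ccn1 between the lines, -0.06 to 0.01 for Ccn2 in KO2, -0.03 to 0.05 for Ccn2 over both lines, -0.21 to 0.15 for Axl in KO1, -0.11 to 0.25 for Axl in KO2, -0.16 to 0.2 for Axl over both lines, -0.03 to 0.18 for Axl between the lines, -0.03 to 0.01 for Ajuba in KO1 and -0.21 to 0.04 for Vgll4 in KO1. The cause was not tested.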
